A study of Mus musculus with 16 samples.

Results

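The transcripts described here encode the surface molecules through which a germinal center (GC) B cell receives help from a follicular helper T cell and engages it. They are the receptors Cd40, Il4ra, Il21r and Il2rg, the ligands Cd80, Cd86 and Icosl, the adhesion ligand Icam1, and Cd83. Members were chosen by gene symbol, and all 9 were found among the 56691 genes of the deposited count matrix. Of these, 8 had counts, and Il2rg had none in any of the 637 cells.

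In the light zone (LZ) of a GC, B cells present antigen to T follicular helper cells and compete for their help. CD40 on the B cell binds CD40 ligand on the T cell and activates NF-κB, while the IL-4 and IL-21 receptors signal through JAK kinases and STAT factors together with the common gamma chain that Il2rg encodes. CD80 and CD86 bind CD28 and CTLA-4, ICOS ligand binds ICOS, and ICAM-1 binds the integrin LFA-1 to hold the cells together. CD83 is a marker of LZ and activated B cells, and Myc is transiently expressed by LZ cells undergoing positive selection.

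The cells were single LZ GC B cells, each made into its own plate-based SMART-seq2 library, from the popliteal lymph nodes of 8 male C57BL/6J or B6.SJL hosts primed with OVA in alum at 6 to 8 weeks of age and boosted with NP-OVA in the hind footpads. Every host had received B cells of both genotypes, mixed at 50% each. B1-8hi BTKWT cells carry the NP-specific B1-8hi heavy chain and inhibitor-sensitive BTK, the kinase downstream of the B cell receptor, while B1-8hi BTKC481S cells carry the same heavy chain and a BTK mutation, made by CRISPR and backcrossed to B6.SJL, that prevents inhibition. The 5 acalabrutinib hosts (A7, A8, A10, A11 and A12) were given the BTK inhibitor by gavage at 0, 6 and 12 hours and sorted at 14 hours, and the 3 vehicle hosts (V5, V7 and V9) were given vehicle on the same schedule. The 16 GEO samples are each 1 genotype of 1 host, but the cell names in the matrix give the host, plate and well and not the genotype. BTKWT and BTKC481S cells of a host are therefore described together and the genotype comparison is not analysed here. The host was the replicate in every test, while the intervals given for shares of cells pool the cells. The mice belong to 2 independent experiments, which cannot be told apart here because the labels do not name the experiment of each host. In the gating plot of a sister experiment the LZ gate took CD86-high, CXCR4-low cells. The levels of Cd86 and Cxcr4 therefore carry the sort.

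Cell totals ran from 132412 to 1825420 counts with a median of 789357, and hosts contributed 45 to 130 cells. There were 381 cells from acalabrutinib hosts and 256 from vehicle hosts, with median totals of 788352 and 796728, and no cell name occurred more than once. Identity as GC B cells was checked on marker lists. At least 3 of 6 B cell markers were counted in 99.4% of cells, although Ms4a1 was at 0 throughout, and at least 3 GC B cell markers in 93.1%. At least 3 T cell markers were counted in 0.785% of cells, with Cd3e in 1 cell, Cd3d in 7 and Lck in 51.7% of cells, and at least 3 macrophage, monocyte and dendritic cell markers in 0.314%. Within this last list Adgre1 was counted in 38.1% of cells, at 8.67 CPM, and Cd68 in 9.11%. The next was Csf1r, in 2.20%, and Itgam was at 0. At least 3 of 5 plasma cell markers were counted in 9.58% of cells. Jchain was counted in 91.2% of cells, Xbp1 in 56.0%, Irf4 in 9.89%, Prdm1 in 6.28% and Sdc1 in 2.35%. Of the T cell molecules that the members bind or respond to, Cd40lg was counted in 7 cells, Il21 in 2, Il4 in 10 and Icos in 9, and Cd28 in 12.1% of cells.

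RefSeq promoter sequence, on build GRCm38.p6, was at hand for 6 of the 9 members. Of these, 3 are shown, each as the 250 bases before the annotated start, on the plus strand. Icam1 is shown because it had the largest difference between Myc-positive and Myc-negative cells among the members (chr9:21015690-21015939). Il4ra (chr7:125552021-125552270) and Il21r (chr7:125603179-125603428) are shown because these cytokine receptor genes lie close together on chromosome 7 and both fell in cycling cells.
Icam1: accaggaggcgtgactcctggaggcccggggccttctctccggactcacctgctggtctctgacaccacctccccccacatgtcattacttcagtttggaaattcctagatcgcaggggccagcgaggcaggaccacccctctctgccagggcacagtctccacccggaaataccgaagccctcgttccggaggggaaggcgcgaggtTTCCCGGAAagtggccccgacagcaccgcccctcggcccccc
Il4ra: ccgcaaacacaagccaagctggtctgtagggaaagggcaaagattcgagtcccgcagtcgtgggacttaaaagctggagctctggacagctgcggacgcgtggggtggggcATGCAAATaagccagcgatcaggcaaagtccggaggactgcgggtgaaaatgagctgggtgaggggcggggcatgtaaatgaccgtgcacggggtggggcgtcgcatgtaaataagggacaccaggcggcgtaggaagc
Il21r: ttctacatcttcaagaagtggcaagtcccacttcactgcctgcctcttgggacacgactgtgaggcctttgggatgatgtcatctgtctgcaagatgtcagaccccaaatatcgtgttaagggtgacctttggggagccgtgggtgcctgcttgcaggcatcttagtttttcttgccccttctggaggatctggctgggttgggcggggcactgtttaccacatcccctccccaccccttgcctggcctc
Capitals mark motif matches. Searched on both strands were the STAT motif TTCNNNGAA, the Myc and Max E-box CACGTG, the octamer ATGCAAAT and the NF-κB consensus, and the octamer was added after the sequences had been read. Icam1 holds 1 STAT match that begins 42 bases before the start, a motif that 7.02% of 32841 mouse promoters hold in the same window. Il4ra holds 1 octamer that begins 139 bases before the start, against 1.6% of promoters. Il21r holds none of the 4 motifs, of which the E-box occurs in 6.02% and the NF-κB consensus in 3.9% of promoters. Only exact matches to each motif were sought, so near matches, such as those to the NF-κB consensus, stay in lower case. The absence of a match therefore does not show that a site is absent. The matches describe letters only.

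The members spanned a wide range of abundance. Levels are CPM, a gene's counts in a host scaled to a common library total, given as the mean ± SD over 8 hosts, and a cell was scored as positive when it held at least 1 count. Some positive cells lay near this floor, with only 1 to 4 counts. They were 34 of 199 for Icosl, 10 of 54 for Cd80 and 28 of 236 for Icam1, but 15 of 547 for Cd83. To set genes beside each other, CPM was also divided by the merged exon length in kilobases. On this per-length scale Cd83 was highest at 552 ± 83.2, followed by Il21r at 180 ± 12.9 and Cd86 at 115 ± 28.5. Cd40 at 55.3 ± 15.7 and Il4ra at 54.5 ± 10.3 did not differ beyond their spread. Icam1 followed at 33.1 ± 6.62, Icosl at 11.3 ± 5.08 and Cd80 at 3.01 ± 2.20. The order below Il21r depends on the length used, because reads in introns were counted too. Per kilobase of the whole gene, introns included, mean CPM was 77.4 for Cd83, 19.8 for Il21r, 11.96 for Il4ra, 11.2 for Icam1, 10.9 for Cd40, 6.77 for Cd86, 3.56 for Icosl and 0.273 for Cd80, so Cd86 stood below Cd40, Il4ra and Icam1.

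Among the receptors, Cd40 (ENSMUSG00000017652), which receives the contact signal, was at 188 ± 53.4 CPM and was counted in 250 of 637 cells, or 39.2% (95% Clopper-Pearson interval 35.4 to 43.2%). Its host levels were 196, 143, 260.27, 145 and 255 CPM in A7, A8, A10, A11 and A12, and 161, 123 and 225 CPM in V5, V7 and V9. High and low hosts occurred under both treatments. Il4ra (ENSMUSG00000030748), the IL-4 receptor alpha chain, was at 327 ± 61.7 CPM and was counted in 55.4% of cells (51.5 to 59.3%), with hosts between 248 and 410.03 CPM. Il21r (ENSMUSG00000030745), the IL-21 receptor, was at 597 ± 42.8 CPM and in 81.0% of cells (77.7 to 84.0%). It varied least over hosts, from 521 CPM in A12 to 639 CPM in A10. Il2rg (ENSMUSG00000031304), the shared partner chain of both cytokine receptors, was at 0 in 637 cells, which allows a share of cells with a count of up to 0.471% (the limit of 3 counts, here 3 of 637 cells). The B cell gene Ms4a1 and the lymphocyte gene Ly9 were also at 0, and whether these zeros come from the counting or from the cells was not tested, so the limit applies to counted reads and not to expression.

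Of the ligands, Cd86 (ENSMUSG00000022901) was at 421 ± 104 CPM, in 63.6% of cells (59.7 to 67.3%), and ranged from 283 CPM in A11 to 609 CPM in A8. Its relative Cd80 (ENSMUSG00000075122) was the rarest measured member, at 11.1 ± 8.13 CPM and in 54 cells, or 8.48% (6.43 to 10.9%), with hosts between 1.12 CPM in A7 and 27.3 CPM in A10. Icosl (ENSMUSG00000000732), the ligand of ICOS, was at 52.0 ± 23.5 CPM and in 31.2% of cells (27.7 to 35.0%), between 18.2 CPM in A10 and 93.5 CPM in A8. Where Icosl was counted it was low. The median positive cell held 46.8 CPM of Icosl and 37.2 CPM of Cd80, compared with 419 CPM of Cd40 and 1504 CPM of Cd83. Icam1 (ENSMUSG00000037405), the ligand of LFA-1, was at 144 ± 28.9 CPM and in 37.0% of cells (33.3 to 40.9%), from 93.1 CPM in A7 to 171 CPM in A10. Cd83 (ENSMUSG00000015396) was at 1420.3 ± 214 CPM and in 85.9% of cells (82.9 to 88.5%), from 1192 CPM in A12 to 1787 CPM in A10. The intervals of these shares pool the 637 cells as if they were independent and leave out the spread between hosts. For Cd40 the share over 8 hosts was 38.9% ± 8.25 (mean ± SD), beside the pooled interval of 35.4 to 43.2%. SMART-seq2 libraries carry no molecular identifiers, which the intervals do not allow for either.

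**Figure D1:**
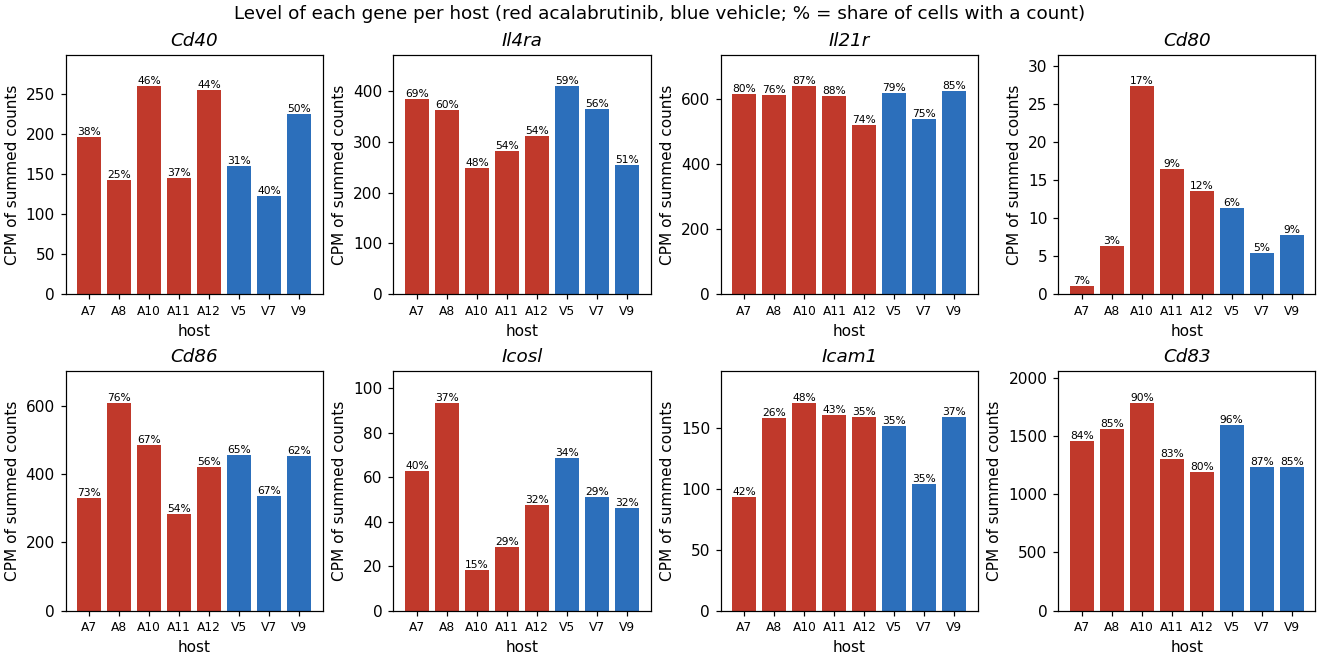
Levels of the 8 measured members by host. Each panel is 1 gene, the bars give CPM in each host from 0 (red, acalabrutinib; blue, vehicle), and the number over a bar is the percentage of that host's cells with a count. Red and blue bars overlap in height in every panel, for example 143 to 260.27 CPM of Cd40 in acalabrutinib hosts and 123 to 225 CPM in vehicle hosts.

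Most cells held several members at once and none held all 8. The most frequent number was 4, in 181 cells (28.4%). There were 5 cells with no member, 27 with 1, 66 with 2, 122 with 3, 129 with 5, 83 with 6 and 24 with 7. Over hosts the mean number of members per cell was 4.72 ± 0.34 in Myc-positive and 3.82 ± 0.24 in Myc-negative cells. With every cell thinned to the same 459128 counts it was 4.68 ± 0.42 and 3.86 ± 0.23, so each value changed little at equal depth. The number of all genes counted per cell also differed, with medians of 4329 in Myc-positive and 3800 in Myc-negative cells. Before thinning, host means did not overlap, from 4.40 to 5.29 in Myc-positive and from 3.58 to 4.33 in Myc-negative cells. How often other sets of genes do the same was not counted. No test was made of these numbers.

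The help receptors Cd40, Il4ra and Il21r were counted together in 119 cells, or 18.7%, with hosts between 12.4% and 26.7%. If the receptors occurred independently within each host, 111.0 such cells would be found. Il4ra and Il21r without Cd40 was the most frequent combination, in 172 cells (27.0%), followed by Il21r alone in 137 (21.5%) and Cd40 with Il21r in 88 (13.8%). None of the 3 was counted in 40 cells (6.28%). Among Myc-positive cells the share with all 3 ran over hosts from 25.5% to 50% with a median of 34.9%, and among Myc-negative cells from 7.89% to 25% with a median of 13.1%. After thinning, the medians were 33.3% and 12.7%. These shares rest on as few as 5 Myc-positive cells, in A7, and were not tested.

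Co-expression was measured as the Spearman correlation across cells within each host, on 573 cells thinned to equal depth, and averaged over the 8 hosts. Cells of a host come from the same animal and in part share plates, so the values are descriptions. Of 28 pairs of members, 20 had a mean above 0, with a median of 0.07, and the means ran from −0.08 to 0.39. Cd83 was in the leading pairs. It went with Cd86 at 0.39 (hosts 0.18 to 0.60), with Cd40 at 0.30 (−0.02 to 0.47), with Il21r at 0.28 (0.11 to 0.57) and with Icam1 at 0.20 (0.10 to 0.29). Cd40 and Cd86 had a mean of 0.22 (0.11 to 0.45). The neighbouring receptor genes Il4ra and Il21r had a mean of 0.09 and hosts on both sides of 0 (−0.11 to 0.47), and Cd80 with Cd86 had the lowest mean, −0.08. In all, 6 pairs were above 0 in every host. How often pairs of other genes lie above 0, by mean or in every host, was not counted. The correlations above mix cycling and non-cycling cells, classes that are defined below. Cd83 with Il21r had a mean of 0.09 within non-cycling cells (hosts −0.29 to 0.34) and 0.26 within cycling cells. Cd40 with Cd86 was at 0.35 and 0.10, while Cd83 with Cd86 was at 0.35 in both. The median of the 28 pairs was 0.03 in non-cycling and 0.10 in cycling cells.

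**Figure D2:**
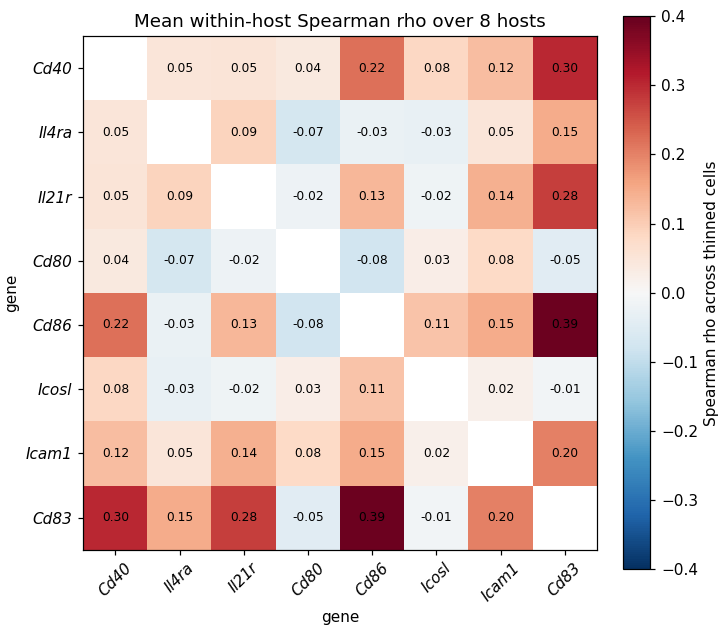
Co-expression of the 8 measured members. Each square gives the mean over 8 hosts of the within-host Spearman correlation of the genes named on both axes, across 573 cells thinned to equal depth, with color from negative to positive. The squares of Cd83 with Cd86 (0.39), Cd40 (0.30) and Il21r (0.28) are the highest, and the squares of Cd80 lie near 0.

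For the 7 members counted in at least 25% of cells, the genes with the most similar pattern were sought among 5119 genes counted in at least 25% of thinned cells. Cd40 was closest to Cd83 (0.30), the NF-κB inhibitor gene Nfkbia (0.24) and Myc (0.23). Icam1 was closest to Cd83 (0.20), Myc (0.20) and Pou2f2 (0.19), and Il21r to Cd83 (0.28), Fnbp1 (0.22) and Nfkb2 (0.21). Cd83 was closest to Fcer2a (0.45), which encodes the low-affinity IgE receptor CD23, then to Cd86 (0.39) and Swap70 (0.37). Cd86 was closest to Cd83 (0.39), Swap70 (0.25) and Dock10 (0.25). The other 2 had no neighbor above 0.20, with Icosl closest to Lrch1, Mtss1 and Bach2 (each 0.18) and Il4ra to Rubcnl (0.19), Pik3c2b (0.18) and Camk2d (0.17). For each of these members the 99th percentile over the 5119 genes lay between 0.109 and 0.203.

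The first comparison asked whether the levels of the members differed between acalabrutinib and vehicle hosts, with both genotypes of a host summed. No member was called, and edgeR called 0% of the 18016 genes tested. Unadjusted p was under 0.05 for 616 genes, of which 0 were members. DESeq2 called 105 genes (0.661%), none of them a member. Cd40 was at 200 ± 56.9 CPM in 5 acalabrutinib and 170 ± 51.3 CPM in 3 vehicle hosts, a log2 difference of 0.23 (SE 0.26). Il21r was at 616, 612, 639, 609 and 521 CPM in A7, A8, A10, A11 and A12, and at 618, 539 and 623 CPM in V5, V7 and V9. The groups overlapped, with the lowest host on the acalabrutinib side, and the log2 difference was 0.00 (SE 0.15). For the other measured members it ran from −0.14 for Icosl (SE 0.51) to 0.60 for Cd80 (SE 0.98), with Il4ra at −0.13 (SE 0.24), Cd86 at 0.03 (SE 0.26), Icam1 at 0.08 (SE 0.22) and Cd83 at 0.09 (SE 0.20). The members' median was 0.05 and that of all genes 0.02. Each host sum mixes inhibitor-sensitive and inhibitor-resistant cells, and a p that misses the threshold does not show equal levels.

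Cycling cells had lower levels of the LZ marker Cd83, both cytokine receptors and Cd86. Cells were called cycling when Seurat's cell cycle score put them in S or G2/M (383 cells) and non-cycling otherwise (254 cells), and class sums were compared within the 8 hosts. Mki67, a proliferation marker that the score uses, ran from 46.3 to 101 CPM in non-cycling and from 564 to 802 CPM in cycling cells of the hosts, and was counted in 22.5% and 83.8% of cells. Top2a, also in the score, had medians of 51.4 and 1108 CPM. These genes describe the classes and are no result. Of the 8 members tested by edgeR, 4 fell and 0 rose, where 1.1% of 12687 genes fell, 2.47% rose and 3.58% were called in all. DESeq2 called the same 4 members lower, and Cd80 higher, where it called 5.52% of genes lower and 10.8% higher, 16.3% in all. The members had a median log2 difference of −0.68, compared with 0.14 for all genes, and all member values below are stated without subtracting that shift.

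Cd83 was between 1561 and 2294 CPM in the non-cycling cells of the hosts (median 1971) and between 806 and 1652 CPM in the cycling cells (median 1029). It was lower in cycling cells in 8 of 8 hosts, although the ranges of the classes overlapped. The fall was 1.82-fold (log2 −0.87, SE 0.12, edgeR adjusted p = 0.00303), and the share of cells with a count was 94.2% and 81.0%. Il21r was between 579 and 883 CPM (median 820.4) in non-cycling and between 359 and 598 CPM (median 494) in cycling cells. It too was lower in 8 of 8 hosts with overlapping ranges, a 1.74-fold fall (log2 −0.80, SE 0.12, edgeR adjusted p = 0.00539). Both calls held under all 15 settings tried, with adjusted p between 2.94e-17 and 0.0105 for Cd83 and between 2.46e-12 and 0.0177 for Il21r. In cells in which Il21r was counted its level was also lower, by host mean 954 CPM in non-cycling and 594 CPM in cycling cells.

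Il4ra was between 253 and 523 CPM (median 448) in non-cycling cells and between 212 and 361 CPM (median 241) in cycling cells. It was lower in 8 of 8 hosts, a 1.63-fold fall (log2 −0.71, SE 0.14, edgeR adjusted p = 0.0194). The call was lost without host A8 (adjusted p = 0.0532), without V9 (0.0511), without the low-count filter (0.0743) and with cells split at the median cycle score (0.0726), and the range over settings was 1.37e-06 to 0.0743. Cd86 was between 375 and 810.1 CPM (median 532) in non-cycling and between 154 and 441 CPM (median 394) in cycling cells. It was lower in 7 of 8 hosts, with A12 the exception, a 1.72-fold fall (log2 −0.78, SE 0.18, edgeR adjusted p = 0.0453). This call was the least stable and held under 6 of 15 settings. It was lost when A7 (0.0648), A8 (0.102), A10 (0.0798), A11 (0.117), V5 (0.0632), V7 (0.0939) or V9 (0.0872) was left out, and the range over settings was 1.39e-05 to 0.129. Without pairing cells by host it was 0.0695. Being lower in every host occurred in 2.06% of all genes tested and in 3 members, Cd83, Il21r and Il4ra.

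The other members did not pass. Cd40 was at 223 ± 62.0 CPM in non-cycling and 159 ± 86.8 CPM in cycling cells (log2 −0.66, SE 0.32, edgeR adjusted p = 0.405) and was lower in 5 of 8 hosts. Icosl had a log2 difference of −0.62 (SE 0.33) and Icam1 of −0.57 (SE 0.35). Cd80 went the other way, at 2.74 ± 3.41 CPM in non-cycling and 14.7 ± 12.5 CPM in cycling cells (log2 3.60, SE 2.59, edgeR adjusted p = 0.638, range over settings 0.0193 to 0.808). DESeq2 gave the lowest of these.

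Measures of identity and depth moved with the cycling class. Summed CPM of the 6 B cell markers ran over hosts from 3835 to 5628 in non-cycling and from 3149 to 4033 in cycling cells, and Cd79b, a chain of the B cell receptor complex, fell (log2 −0.45, SE 0.07, edgeR adjusted p = 0.00621). The median cell held 687226 counts and 3490 genes in the non-cycling and 869386 counts and 4291 genes in the cycling class. The share of cells with a Cd83 count after thinning to equal depth was 96.4% and 80.2%. Of 3 markers of the dark zone, the other GC zone, Polh was higher in cycling cells (log2 2.80, SE 0.31, edgeR adjusted p = 0.000917, called under all 15 settings). Cxcr4 was not called but was higher in 8 of 8 hosts (means 33.4 and 54.4 CPM), as were 5.18% of genes in every host. The level of Cxcr4, like that of Cd86, carries the sort. The remaining marker, Foxo1, lay below 0, and edgeR did not call it. DESeq2 called 1 gene of the list higher and 1 lower, beside 10.8% and 5.52% of all genes. Over all cells Foxo1 was at 634 CPM, Polh at 127 and Cxcr4 at 41.5. The summed CPM of the list overlapped, from 565 to 1155 in non-cycling and from 676 to 981 in cycling cells. The part of these marker shifts in the member falls was not tested. In a CPM measure, less RNA of a gene per cell and more RNA of other genes cannot be told apart.

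**Figure D3:**
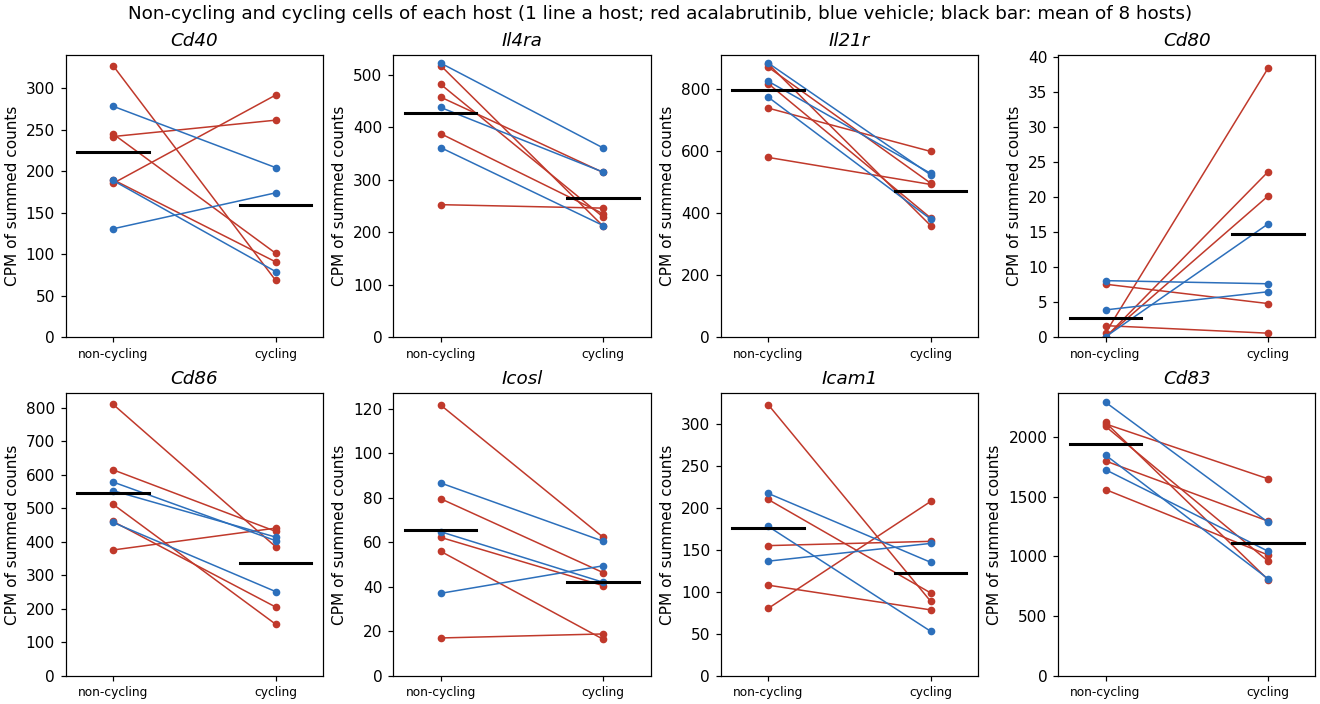
Levels of the 8 measured members in non-cycling and cycling cells. Each panel is 1 gene, each line joins the CPM (y axis) of the classes (x axis) in 1 host (red for acalabrutinib, blue for vehicle), and black bars are means of 8 hosts. All 8 lines slope down for Cd83, Il21r and Il4ra and 7 of 8 for Cd86, while the lines of Cd40, Icam1 and Icosl cross.

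Within the cycling cells, G2/M cells (143) were compared with S cells (240) in the 8 hosts. All 8 members lay below 0, with a median log2 difference of −0.38 compared with −0.09 for all genes. edgeR called 0 of 8, where 0.682% of 10993 genes were called, and 3 members had an unadjusted p under 0.05 (884 genes in all). DESeq2 was not run here. Icosl had the greatest difference, at 55.0 ± 22.7 CPM in S and 26.1 ± 18.9 CPM in G2/M cells (log2 −1.41, SE 0.58, edgeR adjusted p = 0.527), and was lower in 8 of 8 hosts with overlapping ranges, as were 1.76% of genes in every host. Cd83 was at −0.47 (SE 0.14, edgeR adjusted p = 0.251) and Il21r at −0.47 (SE 0.20, adjusted p = 0.571). The log2 values of Icam1, Cd40, Cd86, Il4ra and Cd80 were −0.65, −0.28, −0.25, −0.25 and −0.12.

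Cells with a Myc count carried more Icam1 and Il21r in each of the 8 hosts, but the differences did not pass edgeR's threshold. A cell was called Myc-positive with at least 1 Myc count, which held for 177 of 637 cells (27.8%, 24.3 to 31.4% with cells pooled). Hosts held from 5 to 50 such cells, or from 10.9% to 43.9% of their cells. edgeR called 0 of 8 members and 0.0551% of 12715 genes, 7 in all, of which 0.0393% were higher and 0.0157% lower. Unadjusted p was under 0.05 for 3 members and 1054 genes. DESeq2 called 3 members (Icam1, Il21r and Cd86), all higher, where it called 9.78% of 12222 genes and 1.96% as higher. The median of all genes was −0.42 and that of the members 0.40 (log2), and each member value is again given as fitted, without subtracting the shift.

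Icam1 ran over hosts from 76.1 to 140.0 CPM (median 118) in Myc-negative cells and from 206 to 269 CPM (median 232) in Myc-positive cells. Every Myc-positive value lay above every Myc-negative one, which held for 0.149% of genes in the higher direction. Being higher in every host held for 1.16%. The log2 difference was 1.06 (SE 0.18, edgeR adjusted p = 0.0892, range over settings 5.87e-09 to 0.351). Without pairing by host, Icam1 was called (edgeR adjusted p = 0.0102). The share of cells with an Icam1 count was 32.8% in Myc-negative and 49.97% in Myc-positive cells by host mean, and 32.4% and 48.9% after thinning.

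Il21r ran from 473 to 608 CPM (median 547) in Myc-negative and from 611 to 988 CPM (median 716) in Myc-positive cells, and these ranges did not overlap either. The log2 difference was 0.47 (SE 0.10, edgeR adjusted p = 0.181, range over settings 0.00511 to 0.569), and 76.9% and 88.7% of cells had a count. Cd40 was at 160 ± 70.3 CPM in Myc-negative and 252 ± 84.1 CPM in Myc-positive cells (log2 0.71, SE 0.35, edgeR adjusted p = 0.645), higher in 6 of 8 hosts. Its share of cells with a count was 31.7% ± 9.09 and 58.9% ± 9.37, higher in Myc-positive cells in 8 of 8 hosts. After thinning to equal depth it was 30.8% and 56.6%. That share was given no test, and how many of all genes had a higher share in every host was not counted.

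Cd86 was at 384 ± 124 CPM in Myc-negative and 519 ± 109 CPM in Myc-positive cells (log2 0.47, SE 0.14, edgeR adjusted p = 0.380, range over settings 0.0209 to 0.658), and was higher in 6 of 8 hosts. Cd83 was at 1317 ± 231 and 1704 ± 492 CPM (log2 0.33, SE 0.17). The members that did not lean upwards were Il4ra (log2 −0.10, SE 0.31), Icosl (−0.53, SE 0.52) and Cd80 (−0.54, SE 1.77). Median depth was 751578 counts and 3800 genes in Myc-negative and 890495 counts and 4329 genes in Myc-positive cells. Summed GC B cell markers ran from 2323 to 2997 CPM and from 1504 to 2267 CPM, and the macrophage, monocyte and dendritic cell list from 24.6 to 49.9 CPM and from 0.629 to 34.1 CPM. The part of these shifts in the member values was not tested.

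Because Myc and the cycling state both vary, the Myc classes were also compared within non-cycling cells, in the 4 hosts with at least 5 cells of each class (A8, A10, A11 and V9, with 9, 5, 17 and 13 Myc-positive cells). Cd40 was at 139, 147, 98.2 and 113 CPM in the Myc-negative cells of these hosts and at 391.5, 284, 403 and 577 CPM in their Myc-positive cells. Every Myc-positive value was higher, and the log2 difference was 1.67 (SE 0.39). Among hosts without enough Myc-positive cells, Cd40 in Myc-negative non-cycling cells reached 349 CPM, in A7, which lies within the Myc-positive range. The mean share of cells with a Cd40 count in the 4 hosts was 24.4% and 61.8%.

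Icam1 was at 167, 43.8, 137 and 124 CPM in the Myc-negative and at 381, 174, 525 and 387 CPM in the Myc-positive non-cycling cells of A8, A10, A11 and V9 (log2 1.66, SE 0.38). Il21r was at 771, 579, 726 and 786 CPM and at 999, 1144, 1025 and 1058 CPM (log2 0.53, SE 0.17), with a count in all Myc-positive non-cycling cells of these hosts. The classes did not overlap for Cd40, Icam1 or Il21r, where 1.55% of 10246 genes did not overlap in the higher direction and 5.23% were higher in every host. edgeR called 0 of 8 members and 0% of genes, with 4 members and 371 genes under an unadjusted p of 0.05, and each of the 3 had an edgeR adjusted p of 1. DESeq2 called 4 members, all higher, and 9.87% of genes, 2.07% as higher. They were Cd40 (adjusted p = 2.08e-05), Icam1 (1.57e-06), Il21r (0.00378) and Cd83 (0.00741), each with a range over settings that reached 1. The median of all genes was −0.43 and that of the members 0.55.

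In cycling cells the same contrast, in 5 hosts (A10, A11, A12, V5 and V9), gave smaller log2 values for Cd40 (0.43, SE 0.29) and Icam1 (0.39, SE 0.25), and 0.40 (SE 0.14) for Cd86 and 0.37 (SE 0.12) for Cd83. Cd86 was higher in 5 of 5 hosts, as were 4.02% of 12588 genes. edgeR called 0 members and 0% of genes, with 2 members and 638 genes at an unadjusted p under 0.05, and DESeq2 was not run. The difference of the Myc contrast between cycling and non-cycling cells could be tested in 3 hosts (A10, A11 and V9). It was −1.41 (SE 0.70) for Cd40 and −1.13 (SE 0.91) for Icam1. edgeR called 0% of 15168 genes, with 742 genes and 0 members at an unadjusted p under 0.05, so the contrast is not shown to differ. Nor was it shown to differ between acalabrutinib and vehicle hosts, where edgeR called 0% of 18263 genes (420 genes and 0 members at an unadjusted p under 0.05) and Cd40 was at −0.86 (SE 0.71) and Il4ra at −0.96 (SE 0.59).

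**Figure D4:**
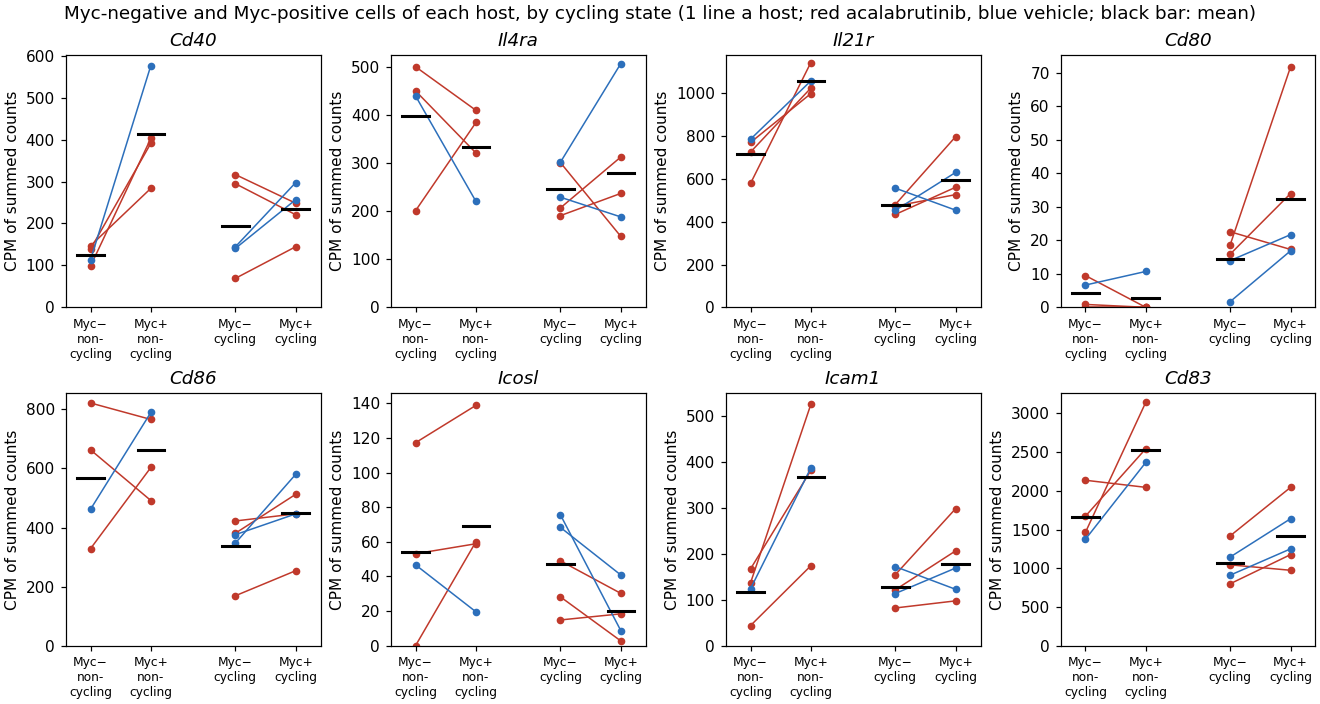
Levels of the 8 measured members in Myc-negative and Myc-positive cells, in non-cycling cells (4 hosts) and cycling cells (5 hosts). Each line joins the CPM (y axis) of the classes (x axis) in 1 host (red for acalabrutinib, blue for vehicle), and black bars are means over the hosts shown. In non-cycling cells all 4 lines slope up for Cd40, Icam1 and Il21r, and in cycling cells all 5 slope up for Cd86.

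The signalling genes around the members were read from lists of pathway genes. Among 19 genes of CD40 signalling, 1 rose in Myc-positive cells, Nfkbia, which encodes the inhibitor IκBα, and 0 fell. It was at 138 ± 44.7 CPM in Myc-negative and 437 ± 82.4 CPM in Myc-positive cells, with no overlap and higher in 8 of 8 hosts (log2 1.70, SE 0.21, edgeR adjusted p = 0.0236). The call held in 7 of 15 settings and was lost without A8, A10, A11, V5, V7 or V9, and with no low-count filter or thinned cells. Of this list 14 genes lay above 0, with a median of 0.31 beside −0.42 for all genes. DESeq2 called 3 higher and 1 lower, where it called 1.96% of all genes higher and 9.78% in all. In cycling cells 0 of the 19 were called by edgeR (6 at an unadjusted p under 0.05, where 13.8% of all genes were), while 17 lay below 0 with a median of −0.37, beside 43.0% of all genes below 0 and a median of 0.14. DESeq2 called 1 of the list higher and 4 lower, where it called 10.8% of all genes higher and 5.52% lower.

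Of 22 genes of cytokine receptor and common gamma chain signalling, 18 could be tested in cycling against non-cycling cells, where 1 fell and 0 rose by edgeR. This was Fcer2a, an IL-4 responsive gene, at 693 ± 135 CPM in non-cycling and 379 ± 84.7 CPM in cycling cells, lower in 8 of 8 hosts (log2 −0.90, SE 0.11, edgeR adjusted p = 0.00210) and called under all 15 settings. The list's median was −0.21, beside 0.14 for all genes. In this comparison edgeR called 1.1% of all genes lower and 2.47% higher. DESeq2 called 1 gene of the list higher and 2 lower, beside 10.8% and 5.52% of all genes. In Myc-positive cells 17 of its genes could be tested and edgeR called 0 (2 at an unadjusted p under 0.05, 1 higher by DESeq2), with a median of 0.17 beside −0.42. Of 16 genes for adhesion and other T cell ligands, 12 could be tested and 0 were called by edgeR in the cycling or the Myc comparison, with 3 and 1 at an unadjusted p under 0.05 and medians of −0.21 and −0.35, beside 0.14 and −0.42 for all genes. The second median thus lay slightly above the general shift. DESeq2 called 2 of them lower in cycling cells, and 2 higher and 1 lower in Myc-positive cells, beside 5.52% of all genes lower in the first and 1.96% higher in the second comparison. None of the 8 partner genes of T cells passed the low-count filter in either comparison. In the comparison of acalabrutinib with vehicle hosts, 0 genes of any of these lists were called by edgeR or DESeq2, with 1 gene of CD40 signalling and 1 of cytokine signalling at an unadjusted p under 0.05.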

How the data were processed

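Single LZ GC B cells were sequenced by SMART-seq2. The authors aligned the reads with STARsolo 2.7.10a to GRCm39 (the labels also list GRCm38), counted reads over exons and introns with exact-position duplicates removed, and deposited whole-number counts as 1 matrix. Counting introns and collapsing duplicates without molecular identifiers both affect levels. Cells were assigned to hosts by name, and 0 columns lacked a host. Counts were summed per host, or per host and class, and tested with edgeR 4.0.16 (TMM, filterByExpr, quasi-likelihood, Benjamini-Hochberg over all genes, call at adjusted p under 0.05), with host as a term wherever classes of the same host were compared. The classes pair because they come from the same animal. Cell cycle phase came from Seurat 5.3.0 (43 S and 54 G2/M genes). Shares and co-expression were recomputed on 573 cells thinned to 459128 counts, leaving out 64 shallower cells. Classes needed 5 cells per host. Depth was 26778559 to 114987280 counts per host.

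All members were named in every comparison, up to 3 called genes per pathway list and comparison, and the 3 most similar genes per member. Members and lists were chosen with earlier results of these data known. Alternatives were DESeq2 1.42.0 and its size factors, no low-count filter, thinning, no host term, plate in place of host, a Myc limit of 10 CPM, a median split for cycling and leaving out each host. Promoters came from RefSeq (GRCm38.p6), and exon lengths from GENCODE annotation of GRCm38, matched by gene ID. R 4.3.3, Python 3.11.15, NumPy 2.4.6, SciPy 1.17.1, pandas 2.3.3 and matplotlib 3.10.9 were used, and the test code was tried on simulated data. P-values between treatments weigh the difference against the spread between hosts. Those between classes, with host as a term, weigh it against how far the class difference varied over hosts. Cells were sorted singly into wells, so no doublet caller was run.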

Additional observations from a re-analysis of the deposited data

Results flagged for a closer look

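There were 80 groups of 5 or 8 hosts, each 1 gene and measure in 1 class of cells. Of these, 7 held a host whose gap to its nearest neighbor exceeded Dixon's limit at 95% confidence. The limit assumes independent, normally distributed values. These groups share hosts and cells and some hold zeros, so how many chance would give is not known. In acalabrutinib hosts Icam1 was lowest in A7 (93.1 CPM, next host 157) and Il21r was lowest in A12 (521 CPM, next 609). Cd80 was counted in 11.9% of the non-cycling cells of V9 (next 5.26%) and was at 54.6 CPM in the Myc-positive cells of A10 (next 22.8). Il4ra was counted in 70.0% of the Myc-negative cells of A7 (next 59.4%). In Myc-positive cells Il4ra was at 965 CPM in V7, which contributed 6 such cells (next 490.1), and Icosl was at 142 CPM in A8 (next 71.0).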

How the results depend on the processing

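The number of calls changed with the test. DESeq2 called 105 genes between treatments (edgeR 0), 2065 in cycling cells (454), 1195 in Myc-positive cells (7) and 1011 in Myc-positive non-cycling cells (0), and 3 and 4 members in the last comparisons (0 and 0). With no filter on low counts the numbers were 248 in cycling, 41 in G2/M (75), 1 in Myc-positive, 2 in Myc-positive non-cycling and 1 in Myc-positive cycling cells (0), and 2 members in cycling cells (4). Thinned cells gave 2 and plate as the block 65 genes in Myc-positive cells, and a Myc limit of 10 CPM gave 1 gene in each of the Myc comparisons within non-cycling and cycling cells. Classes of a host were paired, and without the replicate block 23 genes and 1 member were called in Myc-positive cells, 1 gene in Myc-positive non-cycling and 4 in Myc-positive cycling cells, 438 genes and 3 members in cycling cells and 109 genes in G2/M. Leaving out 1 host at a time gave 276 to 360 genes and 2 to 4 members in cycling cells, 36 to 70 genes in G2/M, 0 to 7 in Myc-positive cells and 0 to 0 in the others. The causes were not tested.

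Among the members' log2 differences, 273 under other settings kept direction and side of the threshold, 9 newly passed it, 4 no longer passed and 18 changed sign, and with 1 host left out 368 kept, 9 no longer passed and 38 changed sign. None of those that changed sign belonged to a called difference. Between treatments these were Cd86 thinned (−0.015), Icosl thinned (0.035) and Il21r with no filter (−0.012) or thinned (−0.011). In G2/M it was Cd80 without the block (0.35). In Myc-positive cells they were Cd80 thinned (0.38), without the block (0.98), by plate (0.27) and at 10 CPM (0.23), and Il4ra without the block (0.15) and at 10 CPM (0.044). In Myc-positive non-cycling cells it was Icosl thinned (−0.45), at 10 CPM (−0.23) and at the median split (−0.63). For the difference of the Myc contrast between cycling states it was Cd83 with DESeq2 size factors (−0.0097) and thinned (−0.0089), and between treatments Cd80 thinned (0.16) and Icam1 thinned (−0.0059).

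With 1 host left out, the log2 ranges crossing 0 were, between treatments, −0.042 to 0.27 for Cd83, −0.16 to 0.15 for Cd86, −0.081 to 0.20 for Icam1, −0.52 to 0.090 for Icosl, −0.37 to 0.057 for Il4ra and −0.055 to 0.075 for Il21r. They were −0.69 to 0.43 for Cd80 in G2/M, −1.26 to 0.16 for Cd80 and −0.35 to 0.087 for Il4ra in Myc-positive cells, −0.31 to 1.69 for Icosl in Myc-positive non-cycling and −0.11 to 0.32 for Il4ra in Myc-positive cycling cells. For the difference between cycling states they were −0.18 to 0.27 for Cd83, −0.42 to 0.039 for Cd86 and −0.16 to 0.38 for Il4ra, and between treatments −2.54 to 1.74 for Cd80, −0.16 to 0.23 for Icam1 and −0.14 to 0.20 for Il21r. All 55 other values of levels, shares and co-expression moved by less than 1 SD over hosts. The 54 cells with a Cd80 count limit what can be said of it.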
